A study of Homo sapiens with 15 samples.

Results

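The 10 genes studied here belong to the negative feedback on receptor tyrosine kinase and mitogen-activated protein kinase (MAPK) signalling, and their transcripts were followed through 15 RNA-seq libraries of Caco-2 cells. They were chosen by symbol, with earlier results of these data known, so the choice was not blind to the data. The genes are DUSP1, DUSP4, DUSP5, DUSP6, DUSP10, SPRY2, SPRY4, SPRED1, SPRED2 and ERRFI1. Each symbol matched 1 Ensembl identifier, giving 10 of the 60601 identifiers present in all 15 count files. Of these, 9 passed the filter on low counts and were tested among 13158 genes, while DUSP10 did not pass. The set holds phosphatases and Sprouty-domain proteins together with ERRFI1, which is neither, and DUSP10 is known as a phosphatase of p38 and JNK more than of ERK.

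Caco-2 cells come from a human colorectal carcinoma and grow into a monolayer with enterocyte features, and the study asked how dishwasher rinse aid affects such an epithelium. Rinse aid was applied for 24 h, 1:10000 and 1:40000, beside monolayers that received none, and each of the 3 groups has 5 libraries. All groups are therefore this single cell line, and the labels do not say whether replicates are separate cultures, so a p-value here reflects just the spread among libraries, which may be technical. The file headers name RNA STAR for the 5 control files and HISAT2 for all 10 rinse aid files. In comparisons with control, exposure therefore cannot be told apart from aligner and annotation, whereas the 2 dilutions share both.

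ERK, the last kinase of the Ras, Raf and MEK cascade, is switched on by growth factor receptors such as the epidermal growth factor (EGF) receptor, and it drives transcription of the proteins that switch the pathway off again. Dual-specificity phosphatases (DUSPs) remove the activating phosphates from MAP kinases, Sprouty proteins block signalling between the receptor and Raf, and SPRED proteins bring the Ras-inactivating protein neurofibromin to the membrane. ERRFI1, also called MIG6, binds the kinase domain of the EGF receptor and inhibits it. Because transcripts of these genes follow ERK activity in many epithelial and tumour cells, they are often read as a sign of pathway output, although stress pathways induce several of them too.

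Promoter sequence was searched for 8 of the genes, with DUSP4 and DUSP5 left out. The RefSeq windows on GRCh38.p14 run from 250 bases before a transcription start to 50 bases after it. The 200 bases before the start are shown for 4 genes on the minus strand, chosen because they include strong, moderate and weak responses below: DUSP1, ERRFI1, SPRY4 and SPRED2. Each is written 5′ to 3′ on the gene's strand, and capitals mark TGACG on either strand (CGTCA when reversed), the core of the cyclic AMP response element bound by CREB and ATF factors, and TATAAA.
DUSP1, chr5:172771196-172771395: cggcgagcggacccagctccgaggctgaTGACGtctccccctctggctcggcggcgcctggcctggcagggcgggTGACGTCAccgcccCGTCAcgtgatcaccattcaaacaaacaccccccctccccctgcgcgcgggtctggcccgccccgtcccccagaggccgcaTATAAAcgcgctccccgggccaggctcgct
ERRFI1, chr1:8026310-8026509: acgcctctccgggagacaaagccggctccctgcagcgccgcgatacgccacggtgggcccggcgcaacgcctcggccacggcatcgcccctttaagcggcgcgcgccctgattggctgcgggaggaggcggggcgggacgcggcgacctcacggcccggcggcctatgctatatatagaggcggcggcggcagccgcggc
SPRY4, chr5:142324248-142324447: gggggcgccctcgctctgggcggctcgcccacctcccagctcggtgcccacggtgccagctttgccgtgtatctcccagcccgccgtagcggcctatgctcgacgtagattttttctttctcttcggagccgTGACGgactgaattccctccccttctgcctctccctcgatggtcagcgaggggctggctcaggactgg
SPRED2, chr2:65432600-65432799: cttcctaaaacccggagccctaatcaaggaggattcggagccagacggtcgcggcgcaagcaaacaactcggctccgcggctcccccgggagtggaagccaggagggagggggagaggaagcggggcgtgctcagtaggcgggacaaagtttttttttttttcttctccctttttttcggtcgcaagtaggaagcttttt

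With the start numbered 0, the DUSP1 window held 4 matches of TGACG, of which 2 overlap within the palindrome TGACGTCA at -125 to -118, and TATAAA at -30 to -25. Among 35116 RefSeq windows of the same length, 24.6% held TGACG at least once on either strand, 110 windows (0.313%) held it at least 4 times, 1.85% held TGACGTCA and 11.5% held TATAAA. DUSP1 also matched CACGTG at -108 to -103, sharing bases with the TGACG match nearest to the start, a motif in 7.26% of windows. In the first listed window of each gene, SPRY2 and SPRY4 had 1 match of TGACG before the start, SPRED2 had 1 after it, and ERRFI1, DUSP6, DUSP10 and SPRED1 had none in these letters. The first listed windows of SPRY4, DUSP6 and SPRED1 belong to starts inside the annotated span of each gene, not to its outermost start. Those of DUSP10 and SPRED2 also lie inside it, but close to the outermost start. Other motifs were searched too. CCGGAAG of ETS factors (10.3% of all windows) and the CArG box of SRF (1.29%) matched in no window of the 8 genes. A later listed window of SPRED2 held TGANTCA of AP-1 (7.71% of all windows) at -6 to 0 and at 34 to 40. That window also held TATAAA at -31 to -26 and TGATGNAA of C/EBP and ATF (3.62%) at -173 to -166. A later window of DUSP10 held TGACG at -4 to 0. A match describes the sequence and shows no binding.

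At the stronger dilution, 1:10000, every feedback gene that could be tested was more abundant than in unexposed cells. The inducible nuclear phosphatases had the largest fold changes: DUSP5 went from 12.7 ± 3.03 to 182 ± 47.4, DUSP4 from 1.68 ± 0.375 to 13.4 ± 3.11, and DUSP1 from 11.7 ± 2.06 to 86.4 ± 16.8 CPM (counts scaled to a common library size after normalisation by the trimmed mean of M-values, TMM; mean ± SD, n = 5). ERRFI1, SPRED1 and DUSP6 followed, the Sproutys rose less, and SPRED2 least, from 97.0 ± 5.70 to 122 ± 5.71 CPM. With the quasi-likelihood test of edgeR and p-values adjusted by Benjamini-Hochberg, 9 of 9 were called higher at an adjusted p under 0.05, where 34.8% of all tested genes were called higher and 36.2% lower. All 9 also had rinse aid libraries entirely above the controls, as did 28.8% of all tested genes. The median log2 fold change of the 9 was 1.82, against -0.02 over all tested genes, and 7 of the 9 were at least 2-fold higher.

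Against control at 1:40000 the estimates of the same genes were smaller, apart from SPRED2 at 0.32 in both. Called higher were 5 of 9 (DUSP5, SPRY2, SPRED1, SPRED2 and ERRFI1), where 26.1% of all tested genes were called higher and 26% lower, and 6 of 9 did not overlap with control, against 18.1% of all tested genes. The median log2 fold change was 0.48, and only DUSP5 was at least 2-fold higher. DUSP1, DUSP4, DUSP6 and SPRY4 did not pass the test there, with estimates between 0.24 and 0.51.

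Between the dilutions, in files that share aligner and annotation, 8 of 9 were called higher at 1:10000 than at 1:40000, where 28.3% of all tested genes were called higher and 29.1% lower, and the libraries of the same number of genes did not overlap, against 20.4% of all tested genes. The median log2 fold change of the 9 was 1.22, against -0.007 over all tested genes. Ranked from the highest fold change of 13158, DUSP5 stood at 37, DUSP1 at 49, DUSP4 at 58, DUSP6 at 223, ERRFI1 at 330 and SPRED1 at 468, and the remaining places were 1416 for SPRY4, 1757 for SPRY2 and 6383 for SPRED2. The 3 comparisons share libraries pairwise and are not independent of each other.

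The scaling of libraries changed the balance of higher and lower genes. With library totals in place of TMM, the median of all tested genes shifted to -0.19 for 1:10000 against control and to -0.16 between the dilutions, and the share of higher genes among those called went from 49.0% to 37.2% and from 49.3% to 32.1%. Without a filter on low counts that share was 60.6% instead of 50.2% at 1:40000 against control, with the median at 0.16, and the median between the dilutions was -0.21. Upper-quartile factors gave 58.2% at 1:40000 against control and 43.7% between the dilutions. Of the feedback genes, 9 were called higher at 1:10000 against control with either scaling and 10, DUSP10 included, without the filter, and 8 were called higher between the dilutions in each. At 1:40000 against control, where 5 were called, 6 passed with library totals and 7 with upper-quartile factors or without the filter.

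**Figure D1:**
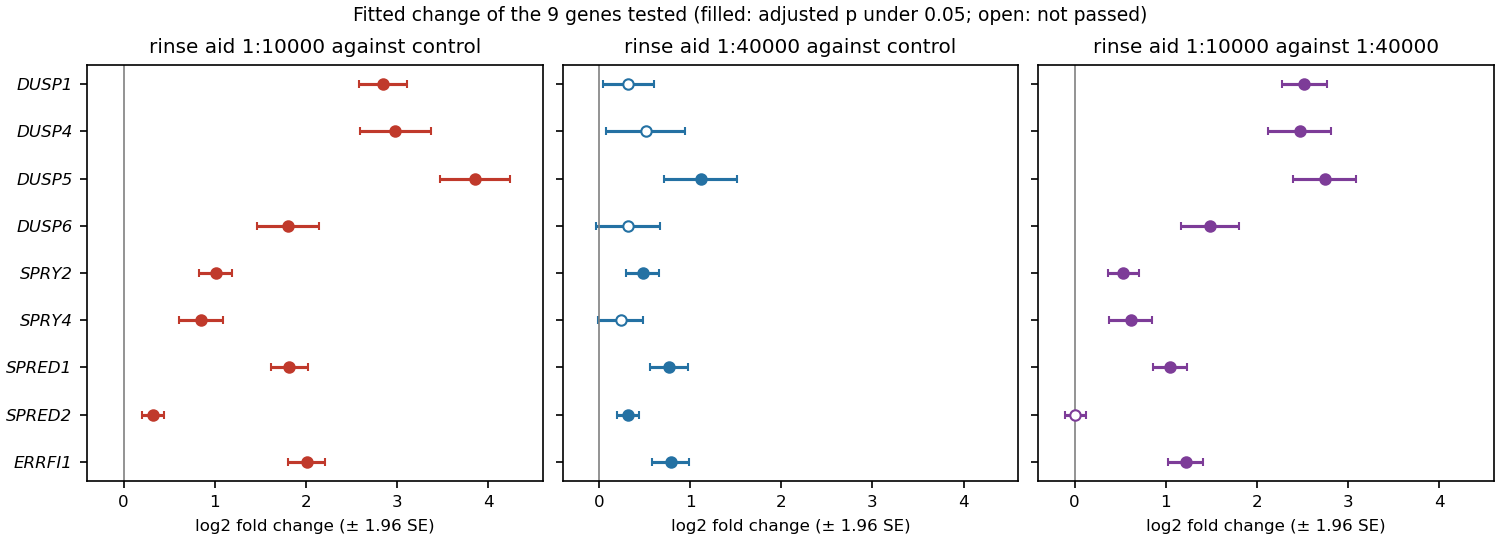
Log2 fold changes of the 9 tested feedback genes in the 3 comparisons, on the horizontal axis, with approximate 95% intervals as bars and filled points at an adjusted p under 0.05 (edgeR). The intervals for 1:10000 against control all lie above 0, DUSP5 reaches 3.86, and SPRED2 lies at 0.01 between the dilutions.

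DUSP5 encodes a nuclear phosphatase that acts on ERK and no other MAP kinase (ENSG00000138166, chromosome 10, 110497838 to 110511544, plus strand; positions of all genes are from GENCODE 29 on GRCh38). In the 5 controls, replicates 1 to 5, its level was 10.6, 9.01, 15.1, 12.5 and 16.3 CPM. The 1:10000 libraries had 236, 230.3, 137, 162 and 145 CPM, and the 1:40000 libraries 29.6, 29.4, 22.9, 27.5 and 27.2 CPM. The 3 groups did not overlap, and even the lowest 1:10000 library lay far above the highest at 1:40000. DUSP5 rose by a log2 fold change of 3.86 ± 0.20 (± approximate SE) at 1:10000 (edgeR adjusted p = 9.21e-11) and 1.11 ± 0.20 at 1:40000 (edgeR adjusted p = 0.000315), and the dilutions differed by 2.75 ± 0.18 (edgeR adjusted p = 4.42e-09). Its processed copies DUSP5P1 and DUSP5P2 took almost no counts: DUSP5P1 had 0, 0 and 11 summed over the control, 1:10000 and 1:40000 libraries, and DUSP5P2 had 0 in each.

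DUSP1, or MKP-1, is an immediate early nuclear phosphatase of p38, JNK and ERK (ENSG00000120129, chromosome 5, 172768090 to 172771195, minus strand), and its promoter is the one shown above with 4 TGACG matches. Control libraries held 9.59, 13.8, 9.32, 12.8 and 12.8 CPM. At 1:10000 its level was 109, 99.9, 73.0, 74.6 and 75.4 CPM, and at 1:40000 it was 17.1, 16.8, 13.0, 14.2 and 14.3 CPM. The stronger dilution stood clear of both other groups, while 1 of the 5 libraries at 1:40000 lay within the control range. The log2 fold change was 2.84 ± 0.13 at 1:10000 (edgeR adjusted p = 1.51e-14) and 2.52 ± 0.13 between the dilutions (edgeR adjusted p = 3.87e-13). At 1:40000 it was 0.32 ± 0.14 (edgeR adjusted p = 0.0583), and DESeq2 gave 0.34 (adjusted p = 0.0423), so this value sits at the threshold. It also passed without control replicate 2 (0.39, edgeR adjusted p = 0.0412), without 1:10000 replicate 1 (0.33, edgeR adjusted p = 0.0294) and without 1:40000 replicate 3 (0.38, edgeR adjusted p = 0.0329), and with upper-quartile factors, library totals, no filter on low counts or a fit of only the groups compared (edgeR adjusted p from 0.0257 to 0.0478).

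DUSP4, or MKP-2, is a nuclear phosphatase of ERK and JNK (ENSG00000120875, chromosome 8, 29333064 to 29350668, minus strand). It was scarce in unexposed cells, at 2.00, 1.17, 1.78, 2.04 and 1.42 CPM. It reached 15.1, 17.5, 10.1, 13.6 and 10.5 CPM at 1:10000 and 2.53, 2.67, 2.19, 2.32 and 2.36 CPM at 1:40000. All 3 groups were again separate, with a narrow gap between control and 1:40000. DUSP4 rose by 2.98 ± 0.20 on the log2 scale at 1:10000 (edgeR adjusted p = 1.56e-12) and was 2.47 ± 0.18 higher there than at 1:40000 (edgeR adjusted p = 2.52e-11), and its 0.51 ± 0.22 at 1:40000 did not pass (edgeR adjusted p = 0.055). That value passed without control replicate 4 (0.65, edgeR adjusted p = 0.0369) and without 1:10000 replicate 2 (0.52, edgeR adjusted p = 0.0434) or replicate 3 (0.51, edgeR adjusted p = 0.0476), and with upper-quartile factors (0.56, edgeR adjusted p = 0.0336).

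DUSP6, or MKP-3, is the cytoplasmic ERK phosphatase and one of the most used transcript readouts of ERK activity (ENSG00000139318, chromosome 12, 89347232 to 89353271, minus strand). The controls had 17.8, 9.30, 10.2, 9.79 and 9.56 CPM, so replicate 1 stood apart from the other 4. Libraries at 1:10000 had 44.7, 48.0, 36.2, 31.6 and 31.6 CPM, and those at 1:40000 had 16.8, 11.5, 11.1, 12.6 and 14.7 CPM. Only the stronger dilution was clear of the controls. DUSP6 rose by 1.80 ± 0.17 on the log2 scale at 1:10000 (edgeR adjusted p = 1.37e-08) and was 1.48 ± 0.16 higher there than at 1:40000 (edgeR adjusted p = 2.12e-07). Against all 5 controls, 1:40000 gave 0.32 ± 0.18 (edgeR adjusted p = 0.141), and without control replicate 1 it gave 0.50 ± 0.15 (edgeR adjusted p = 0.00841), so this call turns on 1 library. The antisense gene AC024909.2 covers 1875 exon bases of DUSP6 (40.5% of its exon length), but took 4, 4 and 15 counts in all over the 3 groups.

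DUSP10, or MKP-5, the phosphatase of p38 and JNK (ENSG00000143507, chromosome 1, 221701424 to 221742176, minus strand), was close to the limit of detection. Its raw counts were 1, 3, 2, 3 and 1 in the controls, 9, 6, 13, 5 and 9 at 1:10000, and 99, 3, 13, 6 and 7 at 1:40000, where the count of 99 comes from the library of 172092447 counts. In CPM the groups were at 0.254 ± 0.121, 1.21 ± 0.333 and 0.704 ± 0.261, in the order control, 1:10000 and 1:40000 (SD, n = 5). Every rinse aid library lay above every control, on counts too few for the filter. With the filter dropped, which was one of the alternatives, the log2 fold change was 2.32 ± 0.50 at 1:10000 (edgeR adjusted p = 0.000126) and 1.41 ± 0.50 at 1:40000 (edgeR adjusted p = 0.0337), and the dilutions differed by 0.92 ± 0.39 (edgeR adjusted p = 0.0859).

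**Figure D2:**
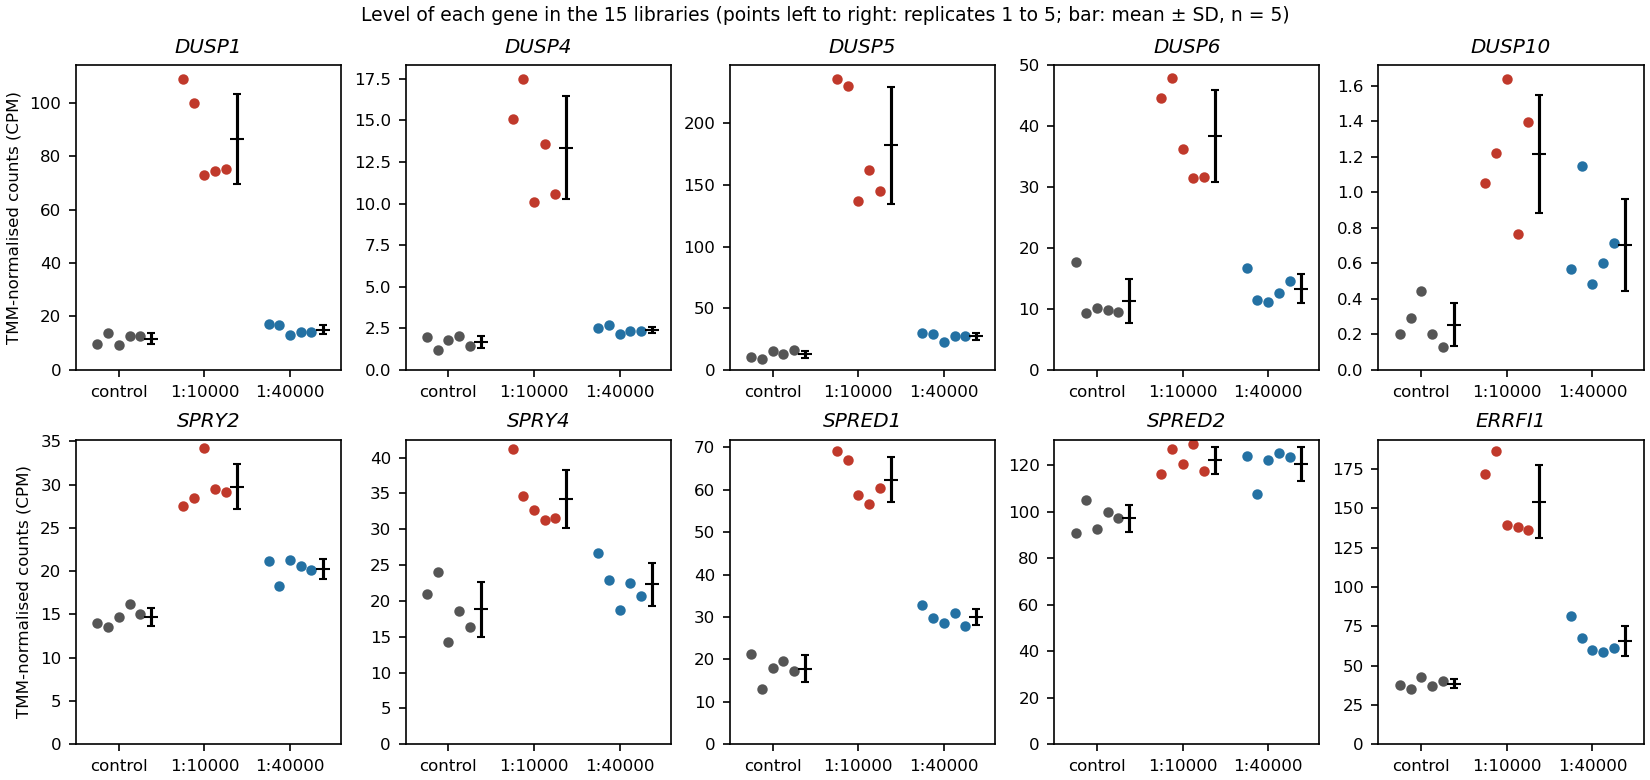
Level of each of the 10 genes in each library, in TMM-normalised CPM on linear axes from 0, with replicates 1 to 5 from left to right in each group and a bar for the mean ± SD (n = 5). For DUSP1, DUSP4, DUSP5 and DUSP6 the 1:10000 points stand far above the other groups, whereas for SPRED2 the 2 dilutions lie at one height.

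SPRY2 and SPRY4 encode Sprouty proteins, which ERK signalling induces and which act upstream of Raf. SPRY2 (ENSG00000136158, chromosome 13, 80335976 to 80340951, minus strand) was at 14.0, 13.5, 14.6, 16.2 and 14.99 CPM in the controls. It reached 27.5, 28.5, 34.2, 29.4 and 29.2 CPM at 1:10000 and 21.1, 18.3, 21.3, 20.5 and 20.1 CPM at 1:40000. The groups were tight and fully separate, with 1:40000 lying between the others. SPRY2 rose by 1.01 ± 0.09 on the log2 scale at 1:10000 (edgeR adjusted p = 4.93e-10) and by 0.48 ± 0.09 at 1:40000 (edgeR adjusted p = 0.000115), and the dilutions differed by 0.54 ± 0.09 (edgeR adjusted p = 1.19e-05).

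SPRY4 (ENSG00000187678, chromosome 5, 142310427 to 142326455, minus strand) varied more among controls, at 21.0, 24.0, 14.2, 18.6 and 16.4 CPM. Its level was 41.2, 34.6, 32.7, 31.3 and 31.6 CPM at 1:10000 and 26.7, 22.9, 18.7, 22.6 and 20.7 CPM at 1:40000. The weaker dilution overlapped the controls and the stronger one did not. SPRY4 rose by 0.85 ± 0.13 on the log2 scale at 1:10000 (edgeR adjusted p = 1.5e-06) and was 0.61 ± 0.12 higher there than at 1:40000 (edgeR adjusted p = 0.000119), while 1:40000 against control gave 0.24 ± 0.12 (edgeR adjusted p = 0.114). Leaving out control replicate 2 (0.35, edgeR adjusted p = 0.0238) or 1:40000 replicate 3 (0.31, edgeR adjusted p = 0.0455) brought that last value past the threshold. The antisense gene SPRY4-AS1 shares no exon base with it.

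SPRED1 and SPRED2 are regulators of Ras that work with neurofibromin. SPRED1 (ENSG00000166068, chromosome 15, 38252326 to 38357249, plus strand) had 21.4, 12.9, 17.97, 19.6 and 17.2 CPM in the controls. It had 69.0, 66.9, 58.8, 56.7 and 60.5 CPM at 1:10000, and 32.8, 29.8, 28.5, 31.0 and 27.8 CPM at 1:40000. All groups were separate and ordered by concentration. SPRED1 rose by 1.82 ± 0.10 on the log2 scale at 1:10000 (edgeR adjusted p = 7.15e-14) and by 0.77 ± 0.10 at 1:40000 (edgeR adjusted p = 1.23e-06), and the dilutions differed by 1.05 ± 0.10 (edgeR adjusted p = 1.84e-09).

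SPRED2 (ENSG00000198369, chromosome 2, 65310851 to 65432637, minus strand) was the most abundant of the set in unexposed cells, with 90.9, 105, 92.3, 99.7 and 97.4 CPM. Libraries at 1:10000 had 116, 127, 121, 129 and 117 CPM, and those at 1:40000 had 124, 108, 122, 125 and 123 CPM. Both dilutions lay above the controls and overlapped each other. SPRED2 rose by the same 0.32 ± 0.06 on the log2 scale at 1:10000 (edgeR adjusted p = 4.34e-05) and at 1:40000 (edgeR adjusted p = 0.00011). The difference between the dilutions was 0.01 ± 0.06 (edgeR adjusted p = 0.918; approximate 95% interval -0.11 to 0.13), an interval that ends below the 0.54 of SPRY2, and its sign changed with the scaling, to -0.04 with upper-quartile factors and -0.14 with library totals. With library totals the rise at 1:10000 was 0.16 (edgeR adjusted p = 0.028).

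ERRFI1, the EGF receptor inhibitor (ENSG00000116285, chromosome 1, 8004404 to 8026308, minus strand), was at 37.5, 35.1, 42.6, 37.3 and 39.9 CPM in the controls. Its level was 172, 186, 139, 138 and 136 CPM at 1:10000 and 81.2, 67.6, 60.1, 58.6 and 61.0 CPM at 1:40000. No library of one group reached another group. ERRFI1 rose by 2.01 ± 0.10 on the log2 scale at 1:10000 (edgeR adjusted p = 9.23e-14) and by 0.79 ± 0.10 at 1:40000 (edgeR adjusted p = 1.55e-06), and the dilutions differed by 1.22 ± 0.10 (edgeR adjusted p = 6.95e-10). The antisense gene AL034417.4 overlaps 155 of its exon bases (3.70%) and took 19, 12 and 53 counts over the 3 groups.

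Levels of different genes were compared per kilobase of exon. In the controls the order of the means was SPRED2 at 18.8, ERRFI1 at 9.20, DUSP1 at 5.77, DUSP5 at 4.85, SPRY2 at 4.83, SPRY4 at 2.87, DUSP6 at 2.45, SPRED1 at 2.16, DUSP4 at 0.232 and DUSP10 at 0.0872 CPM per kb. Neighbouring genes from DUSP1 to SPRY2 and from SPRY4 to SPRED1 overlapped in their libraries, so their order is not set by these data. At 1:10000 the phosphatases DUSP5, at 69.6, and DUSP1, at 42.8 CPM per kb, had passed ERRFI1 at 36.8 and SPRED2 at 23.7, although DUSP5 overlapped with DUSP1 and DUSP1 with ERRFI1. SPRY2 at 9.79, DUSP6 at 8.30 and SPRED1 at 7.55 CPM per kb formed a middle group. DUSP6 overlapped with both others, while SPRY2 (9.05 or more) lay above SPRED1 (8.36 or less). Below them were SPRY4 at 5.22, DUSP4 at 1.84 and DUSP10 at 0.417. At 1:40000 SPRED2 again led, at 23.4 CPM per kb, followed by ERRFI1 at 15.7, DUSP5 at 10.4, DUSP1 at 7.48, SPRY2 at 6.67, SPRED1 at 3.63, SPRY4 at 3.401, DUSP6 at 2.87, DUSP4 at 0.332 and DUSP10 at 0.242, and there DUSP1 overlapped with SPRY2, SPRED1 with SPRY4, SPRY4 with DUSP6 and DUSP4 with DUSP10.

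**Figure D3:**
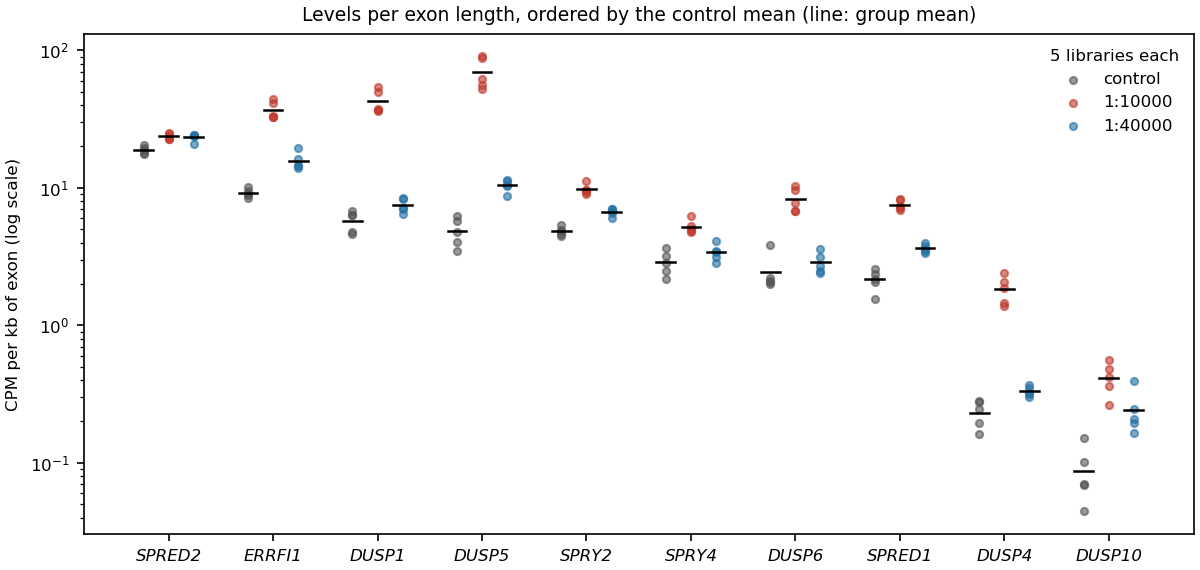
CPM per kb of exon (log axis) of the 10 genes, ordered by their control mean, with a point per library (5 per group) and a line at the group mean. DUSP5 climbs from the fourth place in the controls to the first at 1:10000, and SPRED2 falls from the first place to the fourth while its own level is slightly higher.

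Each pattern was set beside 10359 other tested genes, those averaging 5 CPM or more, by the root mean square (RMS) difference of log2 levels over the 15 libraries after centring each gene on its control mean. Before taking logs 0.5 CPM was added, which shrinks the changes of scarce genes such as DUSP4 most. The nearest gene to DUSP5 was ATF3, a stress-induced transcription factor, at an RMS difference of 0.252, and the nearest to DUSP1 was ANXA1, which encodes annexin A1, also at 0.252. CCN1, a matricellular protein gene, was nearest to DUSP4 (0.212), and TIPARP, a mono-ADP-ribosyltransferase gene, to DUSP6 (0.207). KLF6 was nearest to ERRFI1 (0.120), PAQR3 to SPRED1 (0.123), CLCN3 to SPRY2 (0.0949), ALAS1 to SPRY4 (0.118) and EIPR1 to SPRED2 (0.0740). Within the set, the closest pair was SPRED1 and ERRFI1, at 0.192, and DUSP1 was closest to DUSP4, at 0.281. DUSP5 had no close partner in the set, its nearest being DUSP1 at 0.737. Genes outside the set that were nearer than the nearest member numbered 3 for DUSP1, 4 for DUSP4, 9 for ERRFI1 and 11 for SPRED1. They numbered 31 for DUSP5, 70 for DUSP6, 779 for SPRY4, 814 for SPRY2 and 4205 for SPRED2. These are descriptions over libraries that share groups, depth and scaling.

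The other genes of the pathway were read from lists, to be set beside the medians of all tested genes, -0.02, -0.002 and -0.007 in the 3 comparisons, and the shares called given above. Of 12 other DUSP, Sprouty and SPRED genes, 11 were tested, with 2 higher and 6 lower at 1:10000 against control, 2 higher and 4 lower at 1:40000, and 2 higher and 4 lower between the dilutions. The medians were -0.41, -0.16 and 0.01. SPRY1, another Sprouty gene, went from 5.94 ± 1.59 in control to 24.9 ± 2.42 CPM at 1:10000, a log2 fold change of 2.06 ± 0.14, and was 0.84 ± 0.12 higher there than at 1:40000. DUSP9, a cytoplasmic ERK phosphatase gene, fell by 1.499 ± 0.15 on the log2 scale at 1:10000, and DUSP22 was 0.52 ± 0.09 lower at 1:10000 than at 1:40000 on that scale. DUSP16, which acts on JNK and p38, rose by 0.56 ± 0.06 at each dilution. DUSP8 and DUSP14 were nearly absent from the rinse aid files, with 80, 0 and 3 and with 109, 3 and 5 counts over the control, 1:10000 and 1:40000 libraries. Both have transcripts on alternate sequences outside the primary assembly (6 and 3 in GENCODE 29), as none of the 10 feedback genes has. DUSP16 also has 6 such transcripts and kept its counts, so their part in the absence was not tested, and aligner and exposure cannot be told apart for DUSP8 and DUSP14.

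Genes of the ERK cascade itself, from adaptors to ERK and its kinase substrates, moved in both directions at 1:10000 against both other groups. Their medians were smaller than those of the feedback genes. All 22 were tested, with 11 higher and 6 lower at 1:10000 against control (median 0.15), 6 higher and 1 lower at 1:40000 (median 0.03), and 9 higher and 4 lower between the dilutions (median 0.07). SHOC2, a scaffold that promotes Raf activation, rose by 1.06 ± 0.08 on the log2 scale at 1:10000, from 59.2 ± 3.85 to 123 ± 11.5 CPM. MAP2K1, which encodes MEK1, rose by 0.88 ± 0.07, and the Ras exchange factor gene SOS2 by 0.97 ± 0.10. At 1:40000 MAP2K2 rose by 0.56 ± 0.06 and MAPK3, which encodes ERK1, by 0.35 ± 0.08, and RPS6KA3 was 0.45 ± 0.05 lower on the log2 scale at 1:10000 than at 1:40000. HRAS had 362, 20 and 7 counts over the 3 groups, so its fold changes rest on a near absence of counts in the rinse aid files. It is the 1 gene lower at 1:40000 and is among the 9 higher between the dilutions. At 1:10000 HRAS was at 0.768 ± 1.40 CPM with 3.25 CPM in the highest library, so most of its 20 counts there came from 1 library. HRAS has 11 transcripts outside the primary assembly. RPS6KA1 has 20 and kept its counts, at 2503, 1621 and 13129 over the 3 groups. The part of such transcripts in the low HRAS counts was not tested.

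Transcripts known to depend on ERK outside the set rose in most cases. Of 13 listed genes, 11 were tested, and 10 were higher and 1 lower at 1:10000 against control (median 1.22), 8 higher and 1 lower at 1:40000 (median 0.67), and 9 higher and 1 lower between the dilutions (median 1.03). ETV5, an ETS factor gene, had 5.93 ± 0.755, 35.6 ± 5.27 and 10.9 ± 1.75 CPM in control, 1:10000 and 1:40000, and rose by 2.604 ± 0.14 and 0.95 ± 0.14 on the log2 scale. EPHA2, an ephrin receptor gene, had 42.7 ± 3.55, 254 ± 40.5 and 67.6 ± 9.82 CPM and rose by 2.58 ± 0.11 and 0.67 ± 0.11. PLK3 rose by 3.81 ± 0.25 at 1:10000 and was 2.68 ± 0.20 higher there than at 1:40000. EPHA4 was the gene that fell in each comparison, by 0.67 ± 0.12 on the log2 scale at 1:40000.

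**Figure D4:**
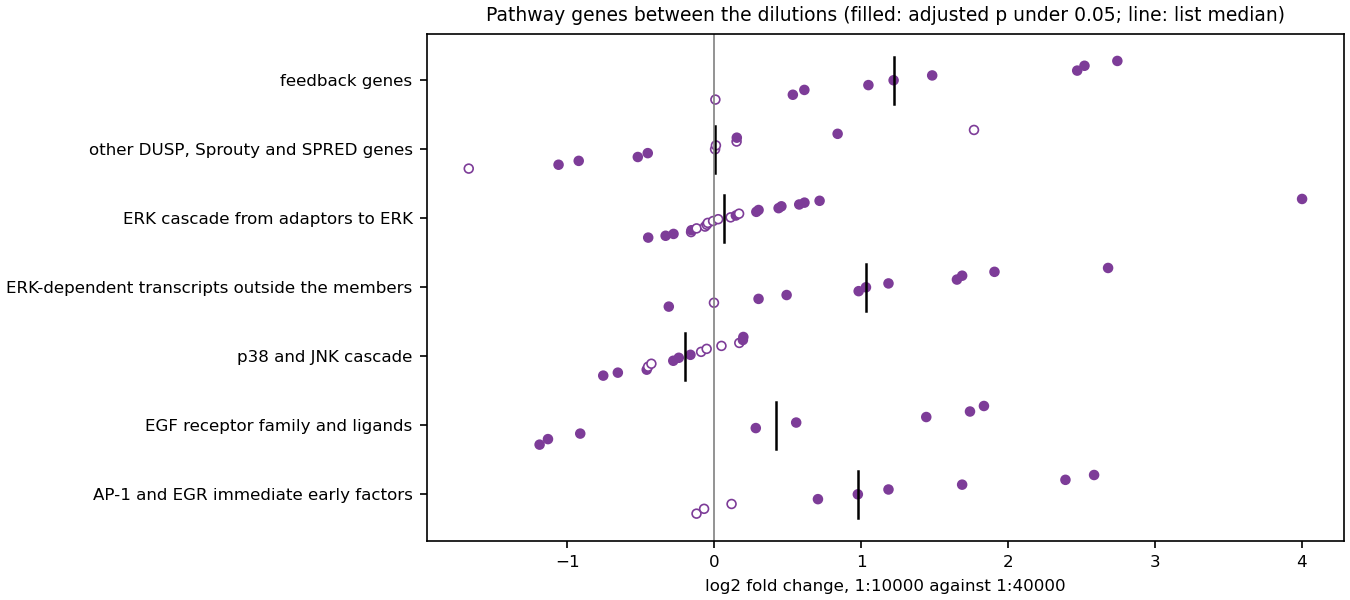
Log2 fold change between the dilutions for each tested gene of the feedback set and 6 pathway lists, with filled points at an adjusted p under 0.05 (edgeR) and a line at each list's median. The medians are 1.22 for the feedback genes, 0.07 for the ERK cascade and 1.03 for other ERK-dependent transcripts. The cascade point near 4 is HRAS, which rests on 20 and 7 counts, most of the 20 from the same library.

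Upstream of the cascade, 8 of 12 genes of the EGF receptor family, its ligands and their sheddase were tested, with 5 higher and 3 lower at 1:10000 against control, 4 called and all 4 higher at 1:40000, and 5 higher and 3 lower between the dilutions (medians 0.69, 0.25 and 0.42). EGFR, the target of ERRFI1, rose by 1.05 ± 0.07 and 0.50 ± 0.07 on the log2 scale at the stronger and the weaker dilution. The ligand gene AREG had 108 ± 5.40, 544 ± 133 and 201 ± 29.5 CPM, and its log2 fold changes were 2.33 ± 0.15 and 0.89 ± 0.15. HBEGF rose by 1.62 ± 0.17 at 1:10000 but gave -0.22 ± 0.17 at 1:40000 (edgeR adjusted p = 0.302). EREG rose by 3.13 ± 0.26 at 1:10000 and by 1.39 ± 0.26 at 1:40000. ERBB2 was 0.91 ± 0.09 lower on the log2 scale at 1:10000 than at 1:40000. AP-1 and EGR factors, of which 9 of 12 were tested, had 7 higher and 1 lower at 1:10000 against control, 5 called and all 5 higher at 1:40000, and 6 called and all 6 higher between the dilutions (medians 1.22, 0.40 and 0.98). ATF3 had the largest log2 fold change of these at 1:10000, 4.04 ± 0.12, and JUN and FOSL1 rose by 1.15 ± 0.12 and 2.42 ± 0.27. FOSL1 and EGR1 are in both this list and that of ERK-dependent transcripts.

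The kinases that DUSP1 and DUSP10 oppose, and those above them, moved in both directions. Of 14 p38 and JNK cascade genes, all tested, 3 were higher and 3 lower at 1:10000 against control, 5 higher and 3 lower at 1:40000, and 2 higher and 6 lower between the dilutions (medians -0.04, 0.05 and -0.20). The p38-activating kinase genes MAP2K3 and MAP2K6 fell by 1.01 ± 0.07 and 1.66 ± 0.14 on the log2 scale at 1:10000, and MAP3K20 rose by 0.55 ± 0.08. At 1:40000 MAPK9 rose by 0.52 ± 0.06 and MAPK12 by 0.80 ± 0.13. MAP2K3 and MAP2K6 were also lower at 1:10000 than at 1:40000, by 0.66 ± 0.07 and 0.75 ± 0.14, respectively, on the log2 scale.

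Within each dilution several feedback genes were high in the same libraries, a pattern noticed after the values were seen. At 1:10000, replicates 1 and 2 both lay above replicates 3, 4 and 5 for 7 of 9 genes (DUSP1, DUSP4, DUSP5, DUSP6, SPRY4, SPRED1 and ERRFI1), as for 20.1% of all tested genes. At 1:40000 the same held for 5 of 9 (DUSP1, DUSP4, DUSP5, SPRY4 and ERRFI1), against 20.5%, and in both dilutions at once for those 5, against 7.90% of all tested genes. In the controls it held for 1 of 9, SPRY4, against 18.2%. TMM factors also set replicates 1 and 2 apart at 1:10000, at 0.894 and 0.896 against 0.942 to 0.952. They did so at 1:40000 too, at 1.009 and 1.026 against 1.030 to 1.040, but not in the controls. Mitochondrial messenger RNA set replicates 1 and 2 apart at 1:40000, at 2.06% and 1.90% of counts against 1.24 to 1.35%, but not at 1:10000. It was also highest in replicates 1 and 2 among the controls, at 1.45% and 1.38%, although the gene pattern held there for 1 of 9. The part of TMM factors and mitochondrial messenger RNA in the pattern was not tested. Without replicates 1 and 2 of both dilutions the counts of genes called higher were again 9, 5 and 8, and the log2 fold changes at 1:10000 against control were 3.58 for DUSP5, 2.64 for DUSP1 and 1.87 for ERRFI1.

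**Figure D5:**
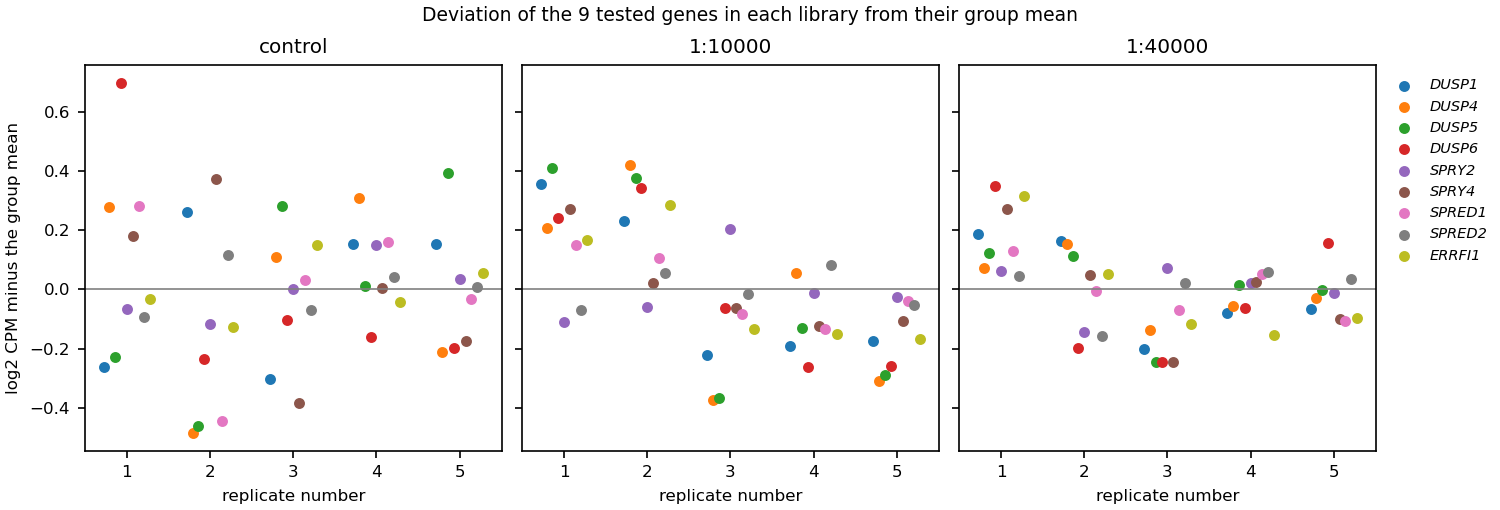
Deviation of each of the 9 tested genes from its group mean, in log2 CPM, by replicate number in the 3 groups. At 1:10000 most points of replicates 1 and 2 lie above 0 and most of the others below, and in the controls replicate 1 of DUSP6 is the highest point.

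Control libraries of the series held 4333226 to 14230853 counts and 1:10000 libraries 5489425 to 9555632. Those at 1:40000 spanned 2551839 (replicate 2) to 172092447 (replicate 1), and dropping the last 2 libraries left the counts of feedback genes called unchanged. Mitochondrial messenger RNA was 1.14 to 1.45%, 2.57 to 3.32% and 1.24 to 2.06% of counts in control, 1:10000 and 1:40000, highest at 1:10000, where the feedback genes were highest too, and mitochondrial ribosomal RNA was 0.216 to 0.349%, 3.11 to 3.83% and 0.626 to 1.24%. With mitochondrial transcripts left out, the feedback genes called higher were again 9, 5 and 8. Caco-2 and enterocyte markers, of which 12 of 14 were tested, had summed levels of 11001 to 12756 CPM (control), 12828 to 14971 CPM (1:10000) and 10948 to 12288 CPM (1:40000), with CDX1 at 0 in the controls and at 1:10000, and KRT20 at 0 in both rinse aid groups. KRT20 had only 5 counts over the controls, and it has 2 transcripts outside the primary assembly, whose part was not tested. The sum is mostly the keratins KRT8 and KRT18, which were higher at 1:10000 than in control, by 0.42 ± 0.08 and 0.74 ± 0.08 on the log2 scale, while 7 of the 12 tested markers were lower there (median -0.47). Those that fell include FABP1 (-2.26 ± 0.13), SI (-2.30 ± 0.41), CDX2 (-1.45 ± 0.08) and HNF4A (-1.40 ± 0.07), markers of differentiated enterocytes and their regulators, named after their values were seen. CDH17 of the same list gave 0.0002 ± 0.06 at 1:10000 (edgeR adjusted p = 0.998) and rose by 0.33 ± 0.06 at 1:40000. SI gave -2.36 ± 0.38 at 1:40000 against control, and the dilutions differed in it by 0.06 ± 0.45 (edgeR adjusted p = 0.927). At 1:40000 against control 1 marker was higher and 3 lower, and between the dilutions 2 were higher and 7 lower at 1:10000. The part of this change in the results on the feedback genes was not tested. Fibroblast markers, 5 of 8 tested, summed to 178 to 194, 89.3 to 109 and 139 to 163 CPM, with THY1 at 0 throughout. Leukocyte markers, 2 of 8 tested, summed to 13.9 to 21.8, 9.15 to 11.8 and 16.2 to 23.7 CPM with PTPRC and MS4A1 at 0, and endothelial markers, 1 of 6 tested, to 3.77 to 10.8, 3.26 to 4.27 and 7.41 to 11.6 CPM with KDR at 0. In bulk RNA, fewer cells of a type and less RNA per cell cannot be told apart. The labels name Caco-2 cells only, and these sums alone do not show that other cell types were present.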

How the data were processed

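Polyadenylated RNA was sequenced from 15 libraries of Caco-2 cells (RNeasy Plus Micro Kit and TruSeq RNA Kit, per the labels' protocols). Each library has 1 file of raw gene counts deposited by the authors under Ensembl identifiers, headed RNA STAR for the controls and HISAT2 for the rinse aid libraries per the file headers. GRCh38, STAR 2.7.9a, DESeq2 1.32.0, featureCounts and cutadapt are named in the submitters' processing notes, without their roles; annotation release and strand setting are not given in the sources used here. Control files listed 60649 genes and rinse aid files 61544; identifiers in both sets took 99.977% or more of the counts in every library, and all 10 genes had the same version in both.

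Counts were fitted in R 4.3.3 with edgeR 4.0.16 (TMM, filterByExpr by group, 3 group means, robust quasi-likelihood test, adjustment over 13158 genes in each comparison, calls at 0.05). The SE is the log2 fold change over the square root of F. Alternatives used DESeq2 1.42.0 and other settings. The fit was tested on simulated data. Outside the 10 genes, up to 3 called genes of smallest adjusted p were eligible per list and comparison, and the nearest gene of each pattern, with DUSP8, DUSP14 and the antisense and copy genes named beside them. Genes and lists were chosen with earlier results of these data known. No replicates of a group were alike within counting noise (lowest chi-square per degree of freedom 1.73). Counting error is smallest for deep libraries, and depth limits DUSP10 and DUSP4.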

Additional observations from a re-analysis of the deposited data

Results flagged for a closer look

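Among the 10 genes in 3 groups of 5 libraries, 30 groups of values in all, 2 held a library whose gap to its nearest neighbour, as a share of the group's range, exceeded Dixon's 95% critical value, and chance gives this in about 1 group in 20. DUSP6 in control replicate 1 was at 17.8 CPM, above the other controls at 9.30 to 10.2, a gap of 0.893 of the range. SPRED2 in replicate 2 at 1:40000, the shallowest library, was at 108 CPM, below the others at 122 to 125, a gap of 0.818 of the range.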

How the results depend on the processing

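Each comparison was refitted under 26 alternatives: DESeq2, upper-quartile factors, library totals, no filter, a replicate block, only the groups compared, only genes with an unchanged version, leaving out each of 15 libraries, and 4 chosen after seeing the data (without both 1:40000 libraries of extreme depth, without replicates 1 and 2 of both dilutions, without mitochondrial transcripts, and thinned to the smallest library). For 1:10000 against control, all 234 refitted values of the 9 genes kept direction and call. For 1:40000 against control 216 of 234 did and 18 passed the test where the reported fit did not: DUSP1 in 9 alternatives (adjusted p from 0.0129 to 0.355 over all), DUSP4 in 5 (0.0336 to 0.23), SPRY4 in 3 (0.0238 to 0.54) and DUSP6 in 1. With the replicate block, 8 genes were called higher there instead of 5, adding DUSP1, DUSP4 and SPRY4; leaving out 1 library gave 5 to 7. No label says that numbers pair libraries, and same-numbered deviations correlated from -0.05 to 0.28, not above 0.1 in every pair; as a hint from the data only, 14 of 30 lookups found the closest deviation at the same number. Between the dilutions 225 of 234 kept direction and call, and the other 9 were SPRED2, whose sign turned without passing the test: -0.0385 with upper-quartile factors, -0.14 with library totals, -0.0591 without the filter, -0.00727 without control replicate 5, -0.011 without 1:10000 replicate 4, -0.00927 without 1:40000 replicate 2 (leaving out 1 library gave -0.011 to 0.0363), -0.00619 without both libraries of extreme depth, -0.00765 thinned and -0.00286 without replicates 1 and 2 of both dilutions. The cause was not tested. Over all genes, 9344, 6859 and 7543 were called in the 3 comparisons, and 9058 to 9556, 6254 to 6972 and 7076 to 7619 when 1 library was left out. Depth limits DUSP10 most, with 1 to 13 counts per library outside the deepest one.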
